A study of Drosophila melanogaster with 18 samples.

Results

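The Cpr genes of Drosophila melanogaster encode cuticle proteins with a Rebers-Riddiford domain, and 49 of them were followed in pupal wings. They were taken by name and by depth: a FlyBase symbol of Cpr followed by a digit, and at least 30 reads counted over the 18 libraries together. The gene name table held 70 such symbols, of which 68 had values, and the 49 members stood among 13731 genes with values. Just inside the minimum lay Cpr11A with 33 counts and Cpr47Eg with 51, and just outside it lay Cpr47Eb with 26 and Cpr30B and Cpr67Fa1 with 25 each. Of the 19 genes with values under the minimum, Cpr65Ax1 had no count in any library.

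The Rebers-Riddiford domain binds chitin, and proteins that carry it fill the chitinous layers of insect cuticle between the chitin fibres. Different members are used at different molts and in soft or hard cuticle, and their symbols give the chromosome band, so that symbols with the same number and letter mark neighbours. During pupal life the wing epithelium first lies under a pupal cuticle, separates from it, and then secretes the adult wing cuticle in successive layers. E93, the product of Eip93F, is a transcription factor that responds to ecdysone and promotes adult development, whereas broad (br) gives zinc finger proteins that specify the pupal stage. Beyond the shared domain and family, no function of a single Cpr member is stated here.

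Poly(A) RNA was sequenced from dissected pupal wings, pooled at 40 or more wings per library, at 24 h and 44 h after puparium formation. All flies carried rn-Gal4, a driver that follows the wing gene rotund (rn). They carried no other transgene named in the labels (control), UAS-E93RNAi as well (E93RNAi), or UAS-brRNAi and UAS-E93RNAi as well (E93RNAi+brRNAi). Each of these 6 groups had 3 libraries. The design asks how many of the changes that go with E93 depletion pass through br, and here it was followed for the Cpr genes alone. Wings with UAS-brRNAi alone were not analysed here, the libraries do not show which dissected cells had carried the driver, and the labels do not state whether replicate libraries had separate crosses behind them. The p-values therefore measure only how far these libraries spread, and that spread may be technical. In such bulk samples, fewer cells of a type and less RNA per cell cannot be told apart.

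Library totals lay between 17627937 and 22940404 counts. After TMM scaling 1 count was worth 0.0412 to 0.0617 CPM, the count scaled to the adjusted library total. The transcript of the RNAi target Eip93F did not pass as lower in the libraries labelled E93RNAi at 24 h, with 2066 ± 193 CPM (mean ± SD, n = 3 here and below) against 2077 ± 51.7 in control (log2 fold change -0.01 ± 0.06, adjusted p = 0.935, interval -0.13 to 0.12). At 44 h it stood at 1156 ± 37.7 CPM against 1285 ± 48.0 (log2 fold change -0.15 ± 0.06, adjusted p = 0.0522, interval -0.28 to -0.03), so the label was not checked by the target's own level and the libraries are named by their labels throughout. The br transcript was higher in E93RNAi than in control, at 95.1 against 14.8 CPM at 24 h and 50.2 against 1.70 at 44 h, and lower again in E93RNAi+brRNAi, at 17.96 and 7.63 CPM. Dcr-2, a nuclease of the RNAi pathway picked out after its values were seen, stood at 5549.5 and 2202 CPM in E93RNAi against 237 and 63.0 in control and 141 and 52.4 in E93RNAi+brRNAi. Its level was thus high in E93RNAi alone, and in these libraries it cannot be told apart from the E93RNAi label in the comparison with control, from added brRNAi in that of E93RNAi+brRNAi with E93RNAi, or from either in the interactions. Replicate 3 of E93RNAi at 24 h and replicate 3 of E93RNAi+brRNAi at 44 h stood apart from the others of their groups. Their counts differed from the others with chi-square per degree of freedom of 19.0 to 27.6, against 4.18 and 5.76 between the remaining pairs. Calls of members that were lost without them are given, with some but not all of the values that moved.

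Markers of other cells also moved. The summed level of 8 muscle markers lay between 90.3 and 93.9 CPM in control at 24 h, 170.0 and 174 in E93RNAi and 63.9 and 69.5 in E93RNAi+brRNAi. At 44 h the ranges were 209.7 to 269 CPM, 67.4 to 99.0 and 256 to 352 in the same order, so that control and E93RNAi+brRNAi overlapped in part and E93RNAi lay below both. Of the 8 tested, 7 were higher and none lower in E93RNAi than in control at 24 h, against 21.7% and 22.3% of all genes. At 44 h none was higher and 8 were lower, against 20.6% and 18.9%. In E93RNAi+brRNAi at 44 h, 4 of them were higher and 1 lower than in control, against 23.0% and 22.6%. Compared with E93RNAi, all 8 were lower in E93RNAi+brRNAi at 24 h and higher at 44 h, against 21.1% and 24.9%. Other lists had calls too, such as 1 higher and 4 lower of 5 neuron markers in E93RNAi at 24 h. Wing epithelium markers with values (5 of 7) summed to 1215 to 1274 CPM in control at 44 h, 1119 to 1130 in E93RNAi and 965 to 1052 in E93RNAi+brRNAi. The sum over 5 genes listed as markers of the trachea, which is itself lined with cuticle, was 2097 to 2179 CPM in control at 44 h, 1854 to 1999 in E93RNAi and 2410 to 2735 in E93RNAi+brRNAi. One of these, Gasp, which also encodes a chitin-binding cuticle protein, had 299 to 314 CPM, 323 to 338 and 1159 to 1463 in the same order, and the other 4 together had 1798 to 1872 CPM, 1530 to 1661 and 1251 to 1382, a split made after the values were seen. The sum was thus highest in E93RNAi+brRNAi with Gasp and lowest there without it. Most of the sum of those 4 was pio, with means of 1657, 1381 and 1012 CPM, so the order without Gasp was that of 1 gene. Whether transcripts of pio and Gasp came from trachea or from the wing epithelium itself was not tested, so these sums do not measure tracheal content. Of the 5 trachea markers, 3 were higher and 1 lower in E93RNAi+brRNAi than in control at 44 h, against 23.0% and 22.6% of all genes. In the same order at 44 h, 5 hemocyte markers summed to 159 to 173 CPM, 135 to 138 and 157 to 164, and 5 neuron markers to 123 to 130 CPM, 116 to 134 and 86.6 to 112.5. The 6 markers of sensory organs and bristles summed to 373 to 401 CPM, 465 to 492 and 367 to 408, and 5 fat body markers to 238 to 352 CPM, 246 to 281 and 321 to 341. No marker with values was at 0 in any group. Hr3, an ecdysone-induced nuclear receptor gene and 1 of 16 listed regulators, rose over time in control from 1.45 to 2204 CPM. At 24 h it was at 6.24 CPM in E93RNAi and 61.9 in E93RNAi+brRNAi. Of the 16 at 24 h, 7 were higher and 1 lower in E93RNAi than in control, against 21.7% and 22.3% of all genes. In E93RNAi+brRNAi 7 were higher and 2 lower than in control, against 14.7% and 15.8%. The part of these cells or of developmental timing in the differences between Cpr genes was not tested.

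In control wings the Cpr genes took 1.16% ± 0.0077 (SD, n = 3) of all counts at 24 h and 0.117% ± 0.0014 at 44 h, and a single gene held most of the 24 h share. Levels of different genes are compared here per length, as the deposited RPKM values (cRPKM, counts scaled by library total and gene length). In control wings at 24 h the 49 genes summed to 11525, 11387 and 11405 cRPKM, and at 44 h to 1027, 1045 and 1029.8. The sums were 7367, 6739 and 7047 cRPKM in E93RNAi at 24 h and 2101, 1981 and 1892 at 44 h. In E93RNAi+brRNAi they were 7383, 6355 and 6663 at 24 h and 2891, 2856 and 3719 at 44 h. At 24 h control lay above both RNAi genotypes, whose ranges overlapped, and at 44 h the 3 genotypes were ordered without overlap: control lowest, then E93RNAi, then E93RNAi+brRNAi.

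Cpr72Ea accounted for 85.9% ± 0.341 of the summed Cpr cRPKM in control wings at 24 h, where it alone reached 9826 ± 101 cRPKM. Behind it stood Cpr12A at 511 cRPKM, Cpr72Eb at 299, Cpr97Ea at 252, Cpr78E at 216 and Cpr100A at 121. The leading 6 at 24 h were the same genes in E93RNAi, where Cpr72Ea had 5590.1 cRPKM and Cpr100A passed Cpr72Eb, at 227 against 167. In E93RNAi+brRNAi at 24 h Cpr49Ah, at 135 cRPKM, stood in the place of Cpr100A.

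By 44 h the order in control wings was another one. Cpr78E led with 219.7 ± 11.6 cRPKM, ahead of Cpr49Ah with 195 ± 8.91, Cpr72Ea with 193 ± 4.52 and Cpr73D with 182 ± 4.79. The levels of Cpr49Ah and Cpr72Ea differed by less than the SD of either, and Cpr97Ea and Cpr76Bc followed at 63.5 and 32.5 cRPKM. In E93RNAi at 44 h Cpr72Ea still led, with 765 ± 70.9 cRPKM and 38.4% ± 1.602 of the Cpr total, followed by Cpr97Ea at 193. In E93RNAi+brRNAi at 44 h the lead passed to Cpr76Bc with 1078 ± 221 cRPKM and Cpr49Ah with 781 ± 176, while Cpr72Ea had 209.6 cRPKM and 6.82% ± 2.04 of the total. Without Cpr72Ea, the share of all counts held by the Cpr genes was 0.145% ± 0.00290, 0.144% ± 0.00750 and 0.119% ± 0.00530 at 24 h, in the order control, E93RNAi, E93RNAi+brRNAi. At 44 h it was 0.0972% ± 0.00170, 0.151% ± 0.00540 and 0.358% ± 0.0617, so the order of the genotypes at 44 h did not rest on Cpr72Ea. It may rest on few other genes, since Cpr76Bc and Cpr49Ah held 34.2% and 24.8% of the summed group means in E93RNAi+brRNAi at 44 h. The order of the sums without Cpr76Bc and Cpr49Ah was not tested, so it is not shown to hold across the family.

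**Figure D1:**
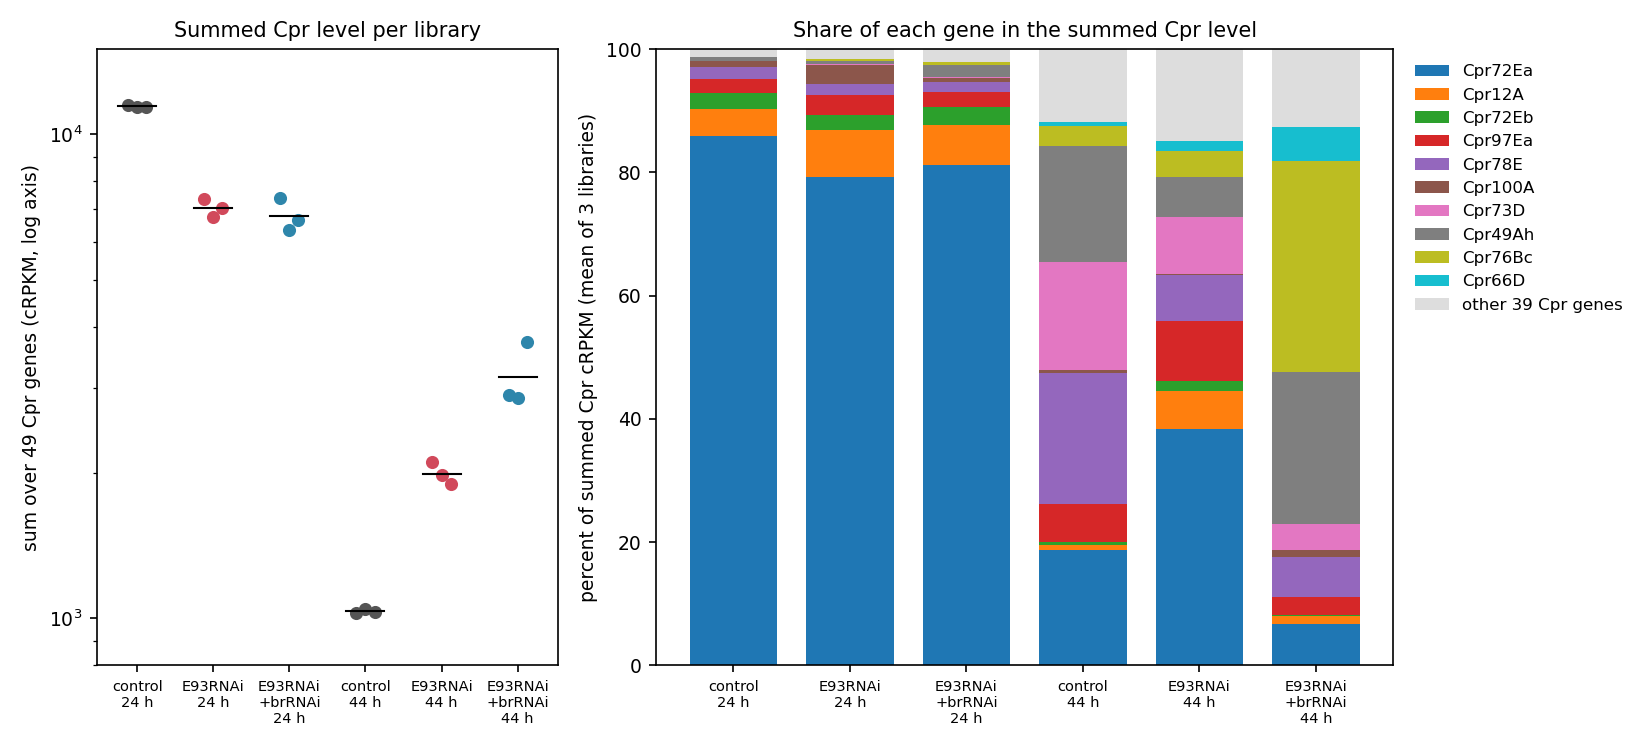
Summed level of the 49 Cpr genes in each of the 18 libraries (left, cRPKM, log axis, bar at the group mean) and the percent of that sum held by 10 named genes and by the other 39 (right, group means). By group means, Cpr72Ea fills 85.9% of the sum in control at 24 h and 6.64% in E93RNAi+brRNAi at 44 h, where Cpr76Bc is largest.

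Over the 6 groups the highest mean CPM fell in E93RNAi+brRNAi at 44 h for 20 of the 49 genes. It fell in control at 24 h and in E93RNAi at 44 h for 7 genes each, in control at 44 h for 6, in E93RNAi+brRNAi at 24 h for 5 and in E93RNAi at 24 h for 4. This tally was not made over all genes, so it does not set the Cpr genes apart. It includes members of few counts, such as Cpr47Eg at 0.253 CPM in its highest group. Of the 49 genes, 44 had enough counts to be tested and 5 (Cpr11A, Cpr23B, Cpr47Eg, Cpr64Ad and Cpr78Cb) did not. All further levels are CPM, which compare 1 gene between groups. Log2 fold changes are given ± SE, and adjusted p-values are from edgeR's quasi-likelihood test with Benjamini-Hochberg adjustment over 9672 genes at a threshold of 0.05.

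In control wings many Cpr genes changed between 24 h and 44 h, in both directions. Of the 44 tested genes, 22 (50%) were higher at 44 h, 15 (34.1%) were lower and 7 did not pass. Over all genes tested 37.1% were higher and 38.1% lower, so the share of higher members was above the background and that of lower members a little under it. Changes of at least 2-fold numbered 19 higher and 14 lower among the members, against 17.5% and 13.5% of all genes. The median log2 fold change of the members was 0.47, or 0.66 with genes that had no count in 1 group at their bound against 3 counts and genes with no count in 1 group and 3 or fewer in the other left out, and -0.01 over all genes. The calls of Cpr62Bb (without replicate 2 at 24 h, 0.42, or 3 at 44 h, 0.38), of Cpr76Ba (without any of 3 libraries, 2.05 to 2.30) and of Cpr62Ba (without any of 3 libraries, -1.18 to -1.06) depended on single libraries.

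The genes that fell included most of those that led at 24 h. Cpr72Ea, the member with the most counts, had 9494, 9438 and 9492 CPM in the control libraries at 24 h (replicates 1, 2 and 3 in this order, here and below) and 220.3, 212 and 215 at 44 h. Its neighbour Cpr72Eb had 215, 216 and 205 CPM and then 4.67, 5.58 and 4.21. For both genes 44 h left 2.28% and 2.27% of the 24 h level (log2 fold change -5.46 ± 0.11, adjusted p = 4.04e-20, and log2 fold change -5.45 ± 0.11, adjusted p = 3.76e-20). Cpr12A had 373, 395 and 392 CPM at 24 h and 7.53, 7.52 and 7.65 at 44 h, the largest fall among members with 5 CPM or more in the higher group (log2 fold change -5.67 ± 0.10, adjusted p = 2.85e-21). Cpr97Eb fell from 32.2 ± 1.68 to 0.941 ± 0.00647 CPM (log2 fold change -5.09 ± 0.19, adjusted p = 5.40e-16), as did Cpr100A from 150.4 ± 17.8 to 5.93 ± 0.650 (log2 fold change -4.66 ± 0.17, adjusted p = 3.57e-16). The neighbour of Cpr97Eb, Cpr97Ea, kept 29.2% of its level, at 101 ± 1.32 CPM (log2 fold change -1.78 ± 0.06, adjusted p = 1.02e-16). None of these groups overlapped between the 2 times.

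Several of the genes that rose came from levels of a few counts. Cpr73D had 3.20, 2.52 and 2.16 CPM at 24 h and 422, 427 and 400.2 at 44 h (log2 fold change 7.31 ± 0.14, adjusted p = 9.44e-21). Exons of Cpr73D overlap those of Ogdh on the opposite strand, and Ogdh moved far less, from 146 to 321 CPM. Cpr92A had 2 counts in all 3 control libraries at 24 h and 714 at 44 h, where its level was 10.9, 14.8 and 12.1 CPM. Cpr50Ca went from 0.258, 0.252 and 0.985 CPM to 28.4, 32.0 and 26.0 (log2 fold change 5.80 ± 0.24, adjusted p = 3.64e-15), and without replicate 3 of control at 24 h its log2 fold change was 6.79. Cpr50Cb, its neighbour, rose from 0.544 ± 0.199 to 19.7 ± 0.709 CPM (log2 fold change 5.16 ± 0.15, adjusted p = 1.46e-17), Cpr92F from 0.883 ± 0.323 to 25.5 ± 7.41 (log2 fold change 4.86 ± 0.27, adjusted p = 9.14e-13) and Cpr66Cb from 0.419 ± 0.234 to 7.71 ± 0.973 (log2 fold change 4.20 ± 0.41, adjusted p = 6.96e-09). In all of these the 44 h libraries lay above every 24 h library. Cpr47Ef had no count in control at 24 h and 117 counts at 44 h, at least 41.8-fold higher against a floor of 3 counts per group.

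Cpr49Ah and Cpr76Bc were present at both times and rose. Cpr49Ah had 66.8, 65.1 and 58.8 CPM at 24 h and 199.7, 189.9 and 205 at 44 h (log2 fold change 1.64 ± 0.11, adjusted p = 1.36e-11), and Cpr76Bc had 6.97, 4.18 and 5.07 and then 49.4, 52.8 and 52.4 (log2 fold change 3.25 ± 0.18, adjusted p = 6.85e-13). Cpr78E changed little, from 83.6 ± 4.04 to 98.5 ± 5.56 CPM (log2 fold change 0.24 ± 0.09, adjusted p = 0.0268). Its call was lost without replicate 1 or 3 of control at 24 h (0.20 and 0.24) or replicate 2 at 44 h (0.19). Cpr62Bc did not pass, at 8.49 ± 0.570 and 9.11 ± 1.82 CPM (log2 fold change 0.11, interval -0.19 to 0.41).

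**Figure D2:**
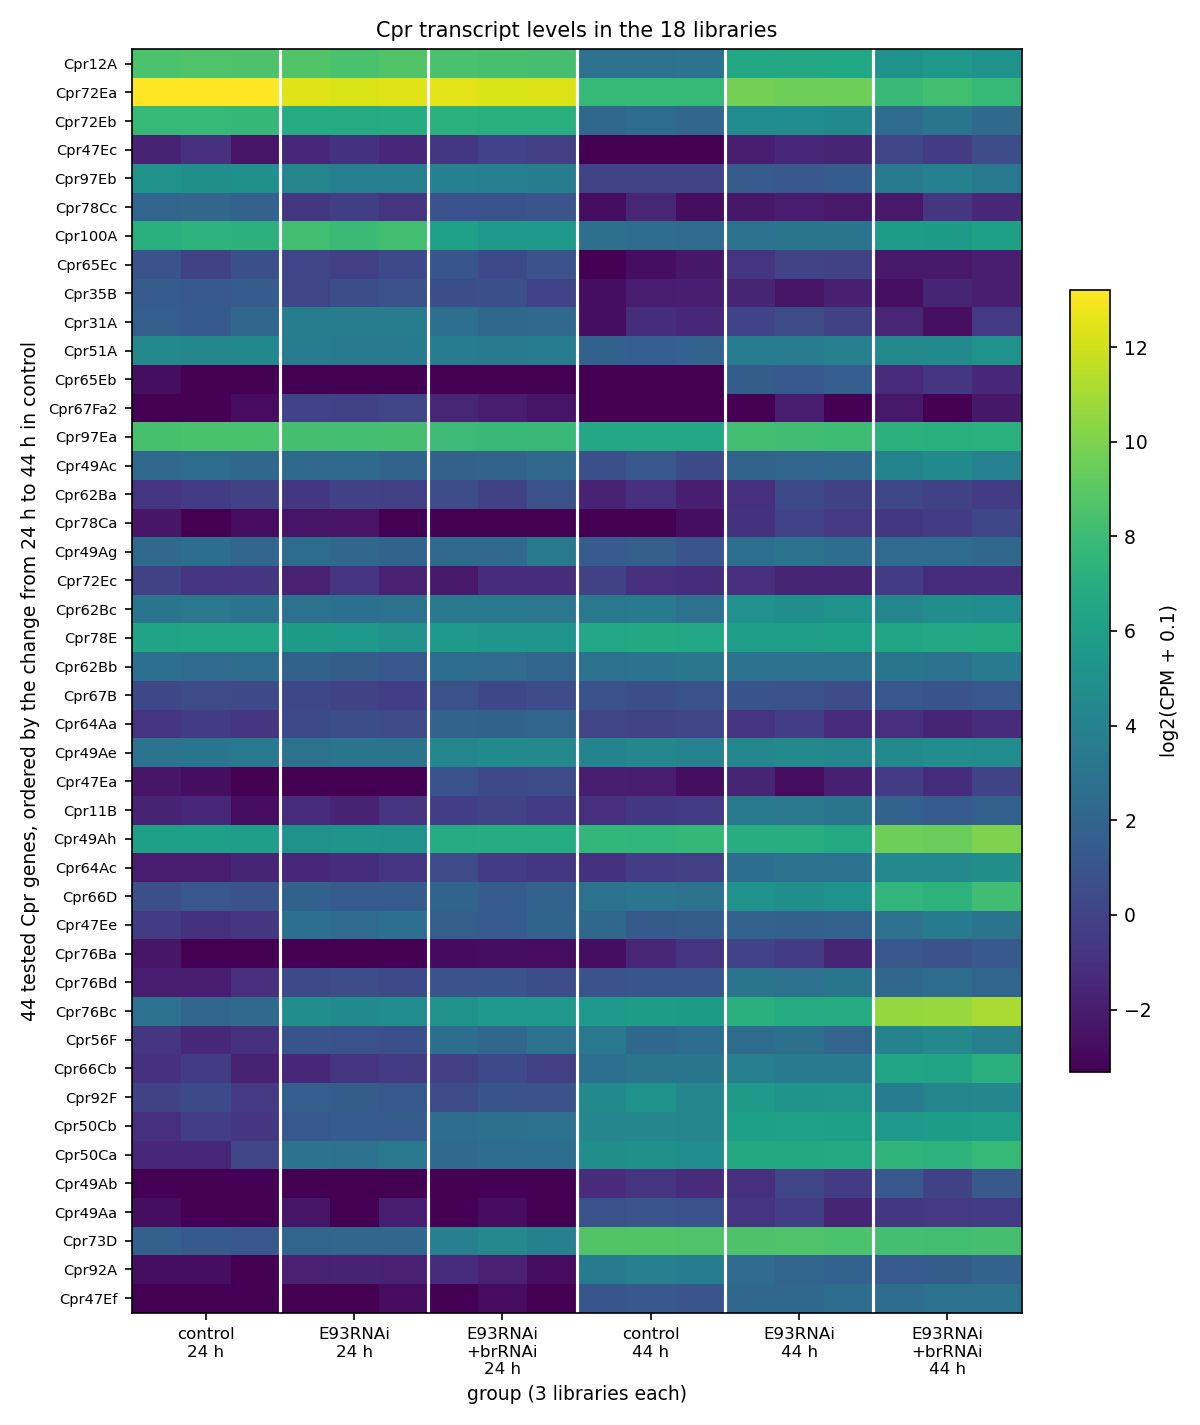
Level of the 44 tested Cpr genes in the 18 libraries, as log2(CPM + 0.1), with genes ordered by their change over time in control. Genes at the falling end of the order, such as Cpr12A and Cpr72Ea, keep more signal in E93RNAi at 44 h than in control at 44 h.

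At 24 h, E93RNAi wings had less of several abundant Cpr transcripts and more of several that were scarce in control. Of the 44 tested genes, 13 (29.5%) were higher than in control and 9 (20.5%) were lower, against 21.7% and 22.3% of all genes tested, so the count of higher members was somewhat above and that of lower members about at the background. At least 2-fold changes numbered 11 higher and 3 lower, against 4.37% and 4.26% of all genes. The median log2 fold change was 0.08 for the members, 0.15 with bounds, and 0.00 for all genes. Of the 13 higher members Cpr92A alone lost its call when a library was left out, whichever of the 6 it was, at 2 counts in control and 13 in E93RNAi.

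Cpr72Ea had 5504, 5035 and 5369 CPM in E93RNAi at 24 h, below each of the 3 control libraries given above (log2 fold change -0.84 ± 0.09, adjusted p = 5.27e-07). Cpr72Eb was lower by nearly the same factor, with 115.5, 116 and 118 CPM (log2 fold change -0.86 ± 0.08, adjusted p = 3.06e-08). Lower values of a like size were found for Cpr97Eb, at 15.5 ± 2.55 CPM (log2 fold change -1.06 ± 0.12), Cpr51A, at 11.5 ± 0.734 against 21.0 ± 0.625 (-0.87 ± 0.13), Cpr78E, at 45.4 ± 7.69 (-0.88 ± 0.10), and Cpr49Ah, at 35.7 ± 1.34 (-0.83 ± 0.11). Without replicate 3 of E93RNAi the log2 fold change of Cpr78E was -0.73. The largest difference among the 9 lower members was that of Cpr78Cc, a gene of low level, from 3.98 ± 0.399 to 0.578 ± 0.136 CPM (log2 fold change -2.76 ± 0.26, adjusted p = 5.35e-08). Cpr12A and Cpr97Ea, which also fell over time in control, did not pass at 24 h (log2 fold changes 0.05, interval -0.10 to 0.20, and -0.13, interval -0.24 to -0.01).

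Among the higher members, Cpr50Ca had 7.63, 7.23 and 9.65 CPM in E93RNAi at 24 h against 0.258, 0.252 and 0.985 in control. All E93RNAi libraries lay above all control libraries (log2 fold change 3.98 ± 0.29, adjusted p = 1.27e-09), and without replicate 3 of control the log2 fold change was 4.98. Cpr47Ee stood at 6.53, 5.39 and 6.48 CPM against 0.620, 0.403 and 0.516 (log2 fold change 3.56 ± 0.28, adjusted p = 3.03e-09). Cpr76Bc had 27.6, 22.8 and 26.6 CPM against the 5.41 ± 1.42 of control (log2 fold change 2.25 ± 0.19, adjusted p = 8.24e-09). These 3 genes were ones that rose over time in control, as did Cpr50Cb (2.20 ± 0.22), Cpr56F (2.13 ± 0.50), Cpr76Bd (2.42 ± 0.32) and Cpr92F (1.62 ± 0.38), all higher in E93RNAi at 24 h and all below 3 CPM there. Cpr31A and Cpr100A, which fell over time in control, were higher as well. Cpr31A had 12.5 ± 0.320 CPM against 3.33 ± 0.943 (log2 fold change 1.90 ± 0.21, adjusted p = 4.11e-07) and Cpr100A had 297, 245 and 289.9 CPM against 129.9, 162 and 159 (log2 fold change 0.88 ± 0.12, adjusted p = 6.32e-06), without overlap. Cpr67Fa2 had 62 counts in E93RNAi at 24 h and 1 in control (adjusted p = 2.84e-05), and reads of this gene may be shared with its close copy Cpr67Fa1.

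At 44 h, most of the tested members were higher in E93RNAi than in control: 25 of 44 (56.8%) were higher and 5 (11.4%) lower, against 20.6% and 18.9% of all genes tested. At least 2-fold differences numbered 23 higher and 2 lower, against 7.24% and 4.66% of all genes. The median log2 fold change was 1.30 for the members, or 1.28 with bounds, and 0.01 for all genes. The call of Cpr66Cb (0.62 ± 0.21) was lost without replicate 1 of control (0.52) or of E93RNAi (0.55), that of Cpr62Ba without replicate 3 of control (1.37) or 2 of E93RNAi (1.21), and that of Cpr64Aa without replicate 3 of E93RNAi (-0.69).

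Several of the members that were higher in E93RNAi had fallen over time in control. Cpr12A had 97.98, 100.5 and 95.5 CPM in E93RNAi at 44 h and 7.53, 7.52 and 7.65 in control (log2 fold change 3.69 ± 0.10, adjusted p = 3.56e-17). Cpr72Ea had 865, 759 and 743 CPM against 220.3, 212 and 215 (log2 fold change 1.87 ± 0.10, adjusted p = 2.47e-12) and Cpr72Eb 25.5, 26.2 and 23.9 against 4.67, 5.58 and 4.21 (log2 fold change 2.38 ± 0.13, adjusted p = 3.17e-12). Every E93RNAi library lay above every control library for all 3 genes. Cpr97Ea stood at 291, 286 and 274 CPM against 102, 99.6 and 100.2 (log2 fold change 1.49 ± 0.06, adjusted p = 3.26e-14). Cpr51A (13.1 ± 1.42 against 3.32 ± 0.328 CPM) and Cpr97Eb (2.51 ± 0.353 against 0.941 ± 0.00647) were higher too (log2 fold changes 1.98 ± 0.17 and 1.40 ± 0.28). Cpr100A, which fell over time as steeply, was not called, with 7.95 ± 0.461 against 5.93 ± 0.650 CPM (log2 fold change 0.42, interval -0.03 to 0.88, adjusted p = 0.133).

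Members that rose over time in control were higher as well. Cpr50Ca had 107, 104 and 109 CPM in E93RNAi at 44 h against 28.4, 32.0 and 26.0 in control (log2 fold change 1.89 ± 0.11, adjusted p = 1.83e-11). Its neighbour Cpr50Cb had 68.9 ± 1.29 CPM against 19.7 ± 0.709 (log2 fold change 1.81 ± 0.07, adjusted p = 7.51e-14), Cpr66D had 34.0 ± 2.87 against 7.80 ± 0.859 (log2 fold change 2.12 ± 0.19, adjusted p = 8.52e-09) and Cpr76Bc had 125 ± 15.7 against 51.5 ± 1.81 (log2 fold change 1.28 ± 0.14, adjusted p = 1.23e-07). Cpr62Bc, which had not passed over time in control, stood at 32.2, 30.2 and 34.0 CPM against 9.83, 10.5 and 7.04 (log2 fold change 1.81 ± 0.13, adjusted p = 2.17e-10). The largest log2 fold changes at 5 CPM or more belonged to Cpr11B, at 9.14 ± 1.14 CPM against 0.514 ± 0.116 (log2 fold change 4.14 ± 0.24, adjusted p = 1.60e-11), Cpr12A, and Cpr64Ac, at 6.82 ± 0.489 against 0.638 ± 0.176 (log2 fold change 3.40 ± 0.24, adjusted p = 3.74e-10). Cpr65Eb had no count in control at 44 h and 149 counts in E93RNAi, at least 49.8-fold higher.

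The 5 lower members at 44 h were Cpr49Aa, Cpr49Ah, Cpr64Aa, Cpr78E and Cpr92A. Cpr49Ah had 125, 126 and 112 CPM in E93RNAi against 199.7, 189.9 and 205 in control (log2 fold change -0.71 ± 0.10, adjusted p = 1.11e-05), and Cpr78E had 61.1, 58.6 and 64.0 against 93.7, 105 and 97.1 (log2 fold change -0.69 ± 0.09, adjusted p = 5.12e-06), without overlap in either. Cpr92A had 5.42, 4.07 and 3.51 CPM against 10.9, 14.8 and 12.1 (log2 fold change -1.54 ± 0.18, adjusted p = 4.27e-07). Cpr73D did not pass at 44 h, with 387 ± 21.7 against 416 ± 14.2 CPM (log2 fold change -0.11, interval -0.29 to 0.07).

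The difference between the 2 times in the effect of the E93RNAi label was itself tested, as an interaction. It was higher at 44 h than at 24 h for 18 of the 44 members and lower for 8, against 19.9% and 18% of all genes. Of these, 17 and 6 reached a log2 difference of 1 either way, against 6.43% and 4.06% of all genes. The calls of Cpr64Ac and Cpr66D were lost without replicate 3 and replicate 2 of control at 24 h (2.19 and 1.27), and that of Cpr78Cc without replicate 2 of E93RNAi at 44 h (2.63). Cpr49Aa lost its call without any of 5 libraries (-3.58 to -2.97), and Cpr65Eb and Cpr78Ca, near the counting limit in several groups, lost theirs without replicate 1 of control at 24 h and without any of 8 libraries. Cpr72Ea, Cpr72Eb, Cpr51A and Cpr97Eb passed in opposite directions at the 2 times, lower at 24 h and higher at 44 h, with log2 differences of 2.71 ± 0.13, 3.24 ± 0.15, 2.86 ± 0.22 and 2.45 ± 0.30. Cpr31A, Cpr50Ca, Cpr50Cb, Cpr76Bc, Cpr76Bd and Cpr92F were higher in E93RNAi at both times, which is 46.2% of the 13 members higher at 24 h and 24% of the 25 higher at 44 h. Cpr49Ah and Cpr78E were lower at both. Neither overlap was counted over all genes. For Cpr50Ca the excess was smaller at 44 h (log2 difference -2.09 ± 0.36, or -3.10 without replicate 3 of control at 24 h).

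The loss of the 24 h genes can be read as the share of the 24 h level that was left at 44 h. For Cpr72Ea this was 2.28% in control, 14.9% in E93RNAi and 4.58% in E93RNAi+brRNAi, and for Cpr72Eb it was 2.27%, 21.6% and 4.48%. For Cpr12A it was 1.96%, 24.5% and 11.3%, and for Cpr97Ea 29.2%, 89.9% and 63.4%. In these 4 genes E93RNAi kept the largest share and control the smallest. Cpr97Eb and Cpr100A had another order, with 2.93%, 16.2% and 88.1% for Cpr97Eb and 3.94%, 2.87% and 102.3% for Cpr100A, so that E93RNAi+brRNAi kept the most. Cpr51A kept 15.8% in control and stood at 114.5% of its 24 h level in E93RNAi and 228.4% in E93RNAi+brRNAi.

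**Figure D3:**
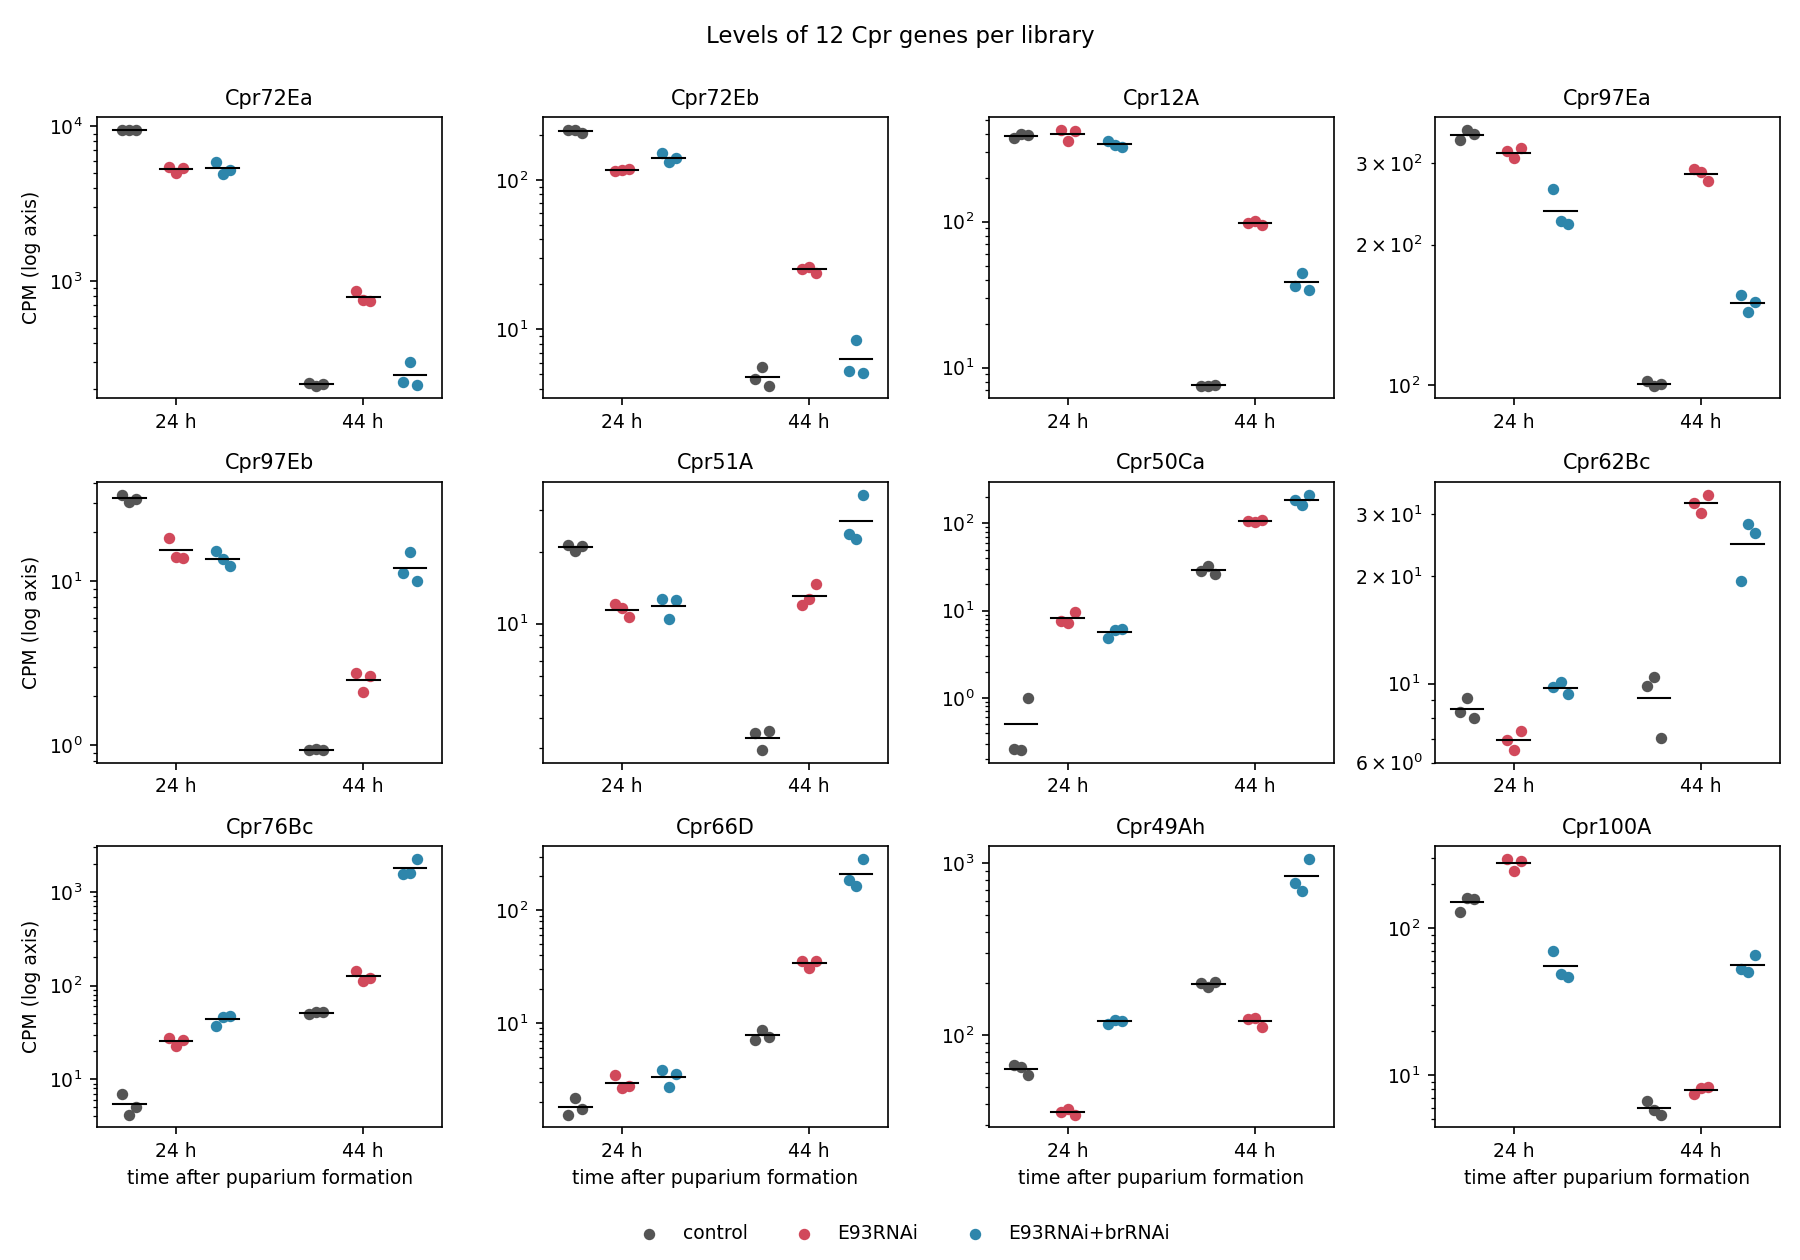
Level of 12 Cpr genes in every library (CPM, log axes), by genotype at 24 h and 44 h; points are libraries and lines are group means. Cpr72Ea, Cpr72Eb, Cpr12A and Cpr97Ea are highest at 44 h in E93RNAi, whereas Cpr76Bc, Cpr66D, Cpr49Ah and Cpr100A are highest at 44 h in E93RNAi+brRNAi.

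The addition of brRNAi was compared with E93RNAi alone at 24 h. Of the 44 members, 17 (38.6%) were higher in E93RNAi+brRNAi and 7 (15.9%) lower, against 20.2% and 21.1% of all genes tested. At least 2-fold differences numbered 11 higher and 3 lower, against 3.08% and 2.87%. The members' median log2 fold change was 0.24, or 0.27 with bounds, and that of all genes -0.01. Without replicate 3 of E93RNAi, 14 were higher and 7 lower, the latter with Cpr78E (-0.22) and without Cpr50Ca (-0.41). Among the 17, the call of Cpr11B was lost without replicate 2 of E93RNAi (0.94) or of E93RNAi+brRNAi (0.99), that of Cpr64Ac without replicate 1 of E93RNAi (1.08) or of E93RNAi+brRNAi (0.72), and that of Cpr72Eb without replicate 1 of E93RNAi+brRNAi (0.21). Cpr47Ec, Cpr65Ec and Cpr67B each lost theirs without any of 4 or 5 libraries, with values of 0.95 to 1.09, 0.58 to 0.89 and 0.49 to 0.59.

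Cpr100A changed most among the members with high levels, with 70.2, 48.7 and 47.0 CPM in E93RNAi+brRNAi at 24 h against 297, 245 and 289.9 in E93RNAi (log2 fold change -2.32 ± 0.13, adjusted p = 1.65e-11). All of its E93RNAi+brRNAi libraries also lay below control, at 129.9, 162 and 159 CPM (log2 fold change -1.44 ± 0.12, adjusted p = 1.71e-08). Cpr31A was lower than in E93RNAi, at 5.30 ± 0.978 CPM (log2 fold change -1.23 ± 0.19, adjusted p = 3.99e-05), as was Cpr97Ea, at 237 ± 23.6 CPM (log2 fold change -0.42 ± 0.06, adjusted p = 7.78e-06). Cpr49Ah went the other way, with 117, 122 and 122 CPM against 35.5, 37.1 and 34.5 (log2 fold change 1.75 ± 0.11, adjusted p = 1.92e-10), above control as well. Cpr73D had 14.4, 22.03 and 15.5 CPM against 4.02, 4.23 and 4.78 (log2 fold change 1.99 ± 0.14, adjusted p = 1.00e-09), and Cpr49Ae had 21.2 ± 2.15 against 7.78 ± 0.728 (log2 fold change 1.44 ± 0.11, adjusted p = 1.95e-09). Cpr76Bc was higher still than in E93RNAi, at 43.6 ± 6.01 CPM (log2 fold change 0.76 ± 0.14, adjusted p = 3.07e-04). Cpr72Ea did not pass, with 5885, 4967 and 5261 CPM (log2 fold change 0.02, interval -0.17 to 0.21, adjusted p = 0.893), and it was lower than in control (-0.82 ± 0.09). Cpr47Ea had 94 counts in E93RNAi+brRNAi at 24 h and none in E93RNAi, at least 30.7-fold higher, and its exons overlap those of Or47a on the opposite strand.

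At 44 h, several members with more transcript in E93RNAi than in control were lower with added brRNAi, and another set was far above both other genotypes. Of 44 members, 19 (43.2%) were higher than in E93RNAi and 14 (31.8%) lower, against 24.9% and 23.9% of all genes. At least 2-fold differences numbered 15 higher and 8 lower, against 7.14% and 3.68%. The median log2 fold change was 0.32 for the members and -0.01 for all genes. Without replicate 3 of E93RNAi+brRNAi, 17 were higher and 14 lower, and the calls of Cpr47Ef (0.42) and Cpr49Ab (1.11), whose groups overlapped, were lost. Those 2 calls were also lost without 3 and 2 other libraries in turn (0.35 to 0.42 and 1.13 to 1.24). Cpr49Ae lost its call without replicate 2 of E93RNAi+brRNAi (0.27), Cpr62Bc without replicate 3 of E93RNAi (-0.32) or 1 of E93RNAi+brRNAi (-0.22), and Cpr92A without replicate 1 or 2 of either genotype (-0.59 to -0.35).

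Cpr72Ea had 223, 301 and 215 CPM in E93RNAi+brRNAi at 44 h, below the 865, 759 and 743 of E93RNAi (log2 fold change -1.68 ± 0.10, adjusted p = 1.20e-11). Against control the difference did not pass (log2 fold change 0.19, interval -0.01 to 0.39, adjusted p = 0.111), and the groups overlapped. Without replicate 3 of E93RNAi+brRNAi the difference from control passed as higher (log2 fold change 0.28, adjusted p = 0.0176). Cpr72Eb had 5.30, 8.55 and 5.12 CPM (log2 fold change -1.99 ± 0.12, adjusted p = 2.90e-11). Against control the difference of Cpr72Eb did not pass either (0.39, interval 0.06 to 0.71), but it passed as higher without replicate 3 of E93RNAi+brRNAi (0.53, adjusted p = 0.0117). Cpr12A had 36.4, 44.8 and 34.2 CPM against 97.98, 100.5 and 95.5 (log2 fold change -1.35 ± 0.08, adjusted p = 1.98e-11), and Cpr97Ea had 156, 144 and 151 against 291, 286 and 274 (log2 fold change -0.92 ± 0.06, adjusted p = 4.36e-11). Both stayed above control, with log2 fold changes of 2.35 ± 0.10 and 0.58 ± 0.06. Cpr11B stood between the other genotypes in the same way, at 3.13 ± 0.534 CPM (-1.55 ± 0.18 against E93RNAi and 2.59 ± 0.28 against control), and so did Cpr76Bd (-0.76 ± 0.15 and 1.28 ± 0.18). Cpr65Eb, without a count in control at 44 h, went from 149 counts in E93RNAi to 19 in E93RNAi+brRNAi.

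Cpr76Bc was the member most changed in the other direction. It had 1573, 1586 and 2249 CPM in E93RNAi+brRNAi at 44 h, 143, 113 and 120.0 in E93RNAi and 49.4, 52.8 and 52.4 in control. The 3 genotypes did not overlap, and the log2 fold change was 3.85 ± 0.14 against E93RNAi (adjusted p = 2.03e-14) and 5.13 ± 0.15 against control (adjusted p = 1.90e-16). Cpr66Cb had 87.4, 80.0 and 143 CPM against 13.2, 11.2 and 11.3 in E93RNAi (log2 fold change 3.12 ± 0.17, adjusted p = 8.32e-12), and Cpr66D had 185, 164 and 285 against 35.6, 30.7 and 35.7 (log2 fold change 2.64 ± 0.14, adjusted p = 6.93e-12). Cpr49Ah had 769.9, 685 and 1058 CPM against 125, 126 and 112 (log2 fold change 2.79 ± 0.11, adjusted p = 4.69e-14). In each of these genes replicate 3 of E93RNAi+brRNAi was the highest library. Without it the log2 fold changes were 3.66 for Cpr76Bc, 2.82 for Cpr66Cb, 2.37 for Cpr66D and 2.59 for Cpr49Ah. Among 25 members this library was over 1.5-fold above the mean of the other two for Cpr66Cb, Cpr66D and Cpr51A and below it by as much for none.

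Cpr100A had 52.7, 50.8 and 66.1 CPM against 7.42, 8.19 and 8.24 (log2 fold change 2.83 ± 0.16, adjusted p = 1.52e-11), and Cpr97Eb had 11.2, 15.1 and 10.1 against 2.77, 2.11 and 2.65 (log2 fold change 2.28 ± 0.17, adjusted p = 9.44e-10). Both genes had fallen over time in control, as Cpr12A and Cpr72Ea had, but lay above E93RNAi at 44 h where those lay below it. Cpr49Ac had 19.0 ± 4.28 CPM against 4.11 ± 0.393 (2.21 ± 0.17), Cpr64Ac had 24.1 ± 3.79 against 6.82 ± 0.489 (1.82 ± 0.15), Cpr51A had 27.2 ± 6.79 against 13.1 ± 1.42 (1.06 ± 0.13, or 0.83 without replicate 3) and Cpr50Ca had 186 ± 25.8 against 107 ± 2.58 (0.80 ± 0.10). For these 4 genes control lay lowest of the 3 genotypes. Cpr78E was again near control, with 97.4 ± 10.99 against 61.2 ± 2.70 CPM in E93RNAi (0.67 ± 0.10) and a difference from control that did not pass (-0.02, interval -0.21 to 0.18). The log2 fold change of Cpr31A against E93RNAi, -1.74, was -2.76 without replicate 3 of E93RNAi+brRNAi, at levels of 1.04 and 0.306 CPM.

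**Figure D4:**
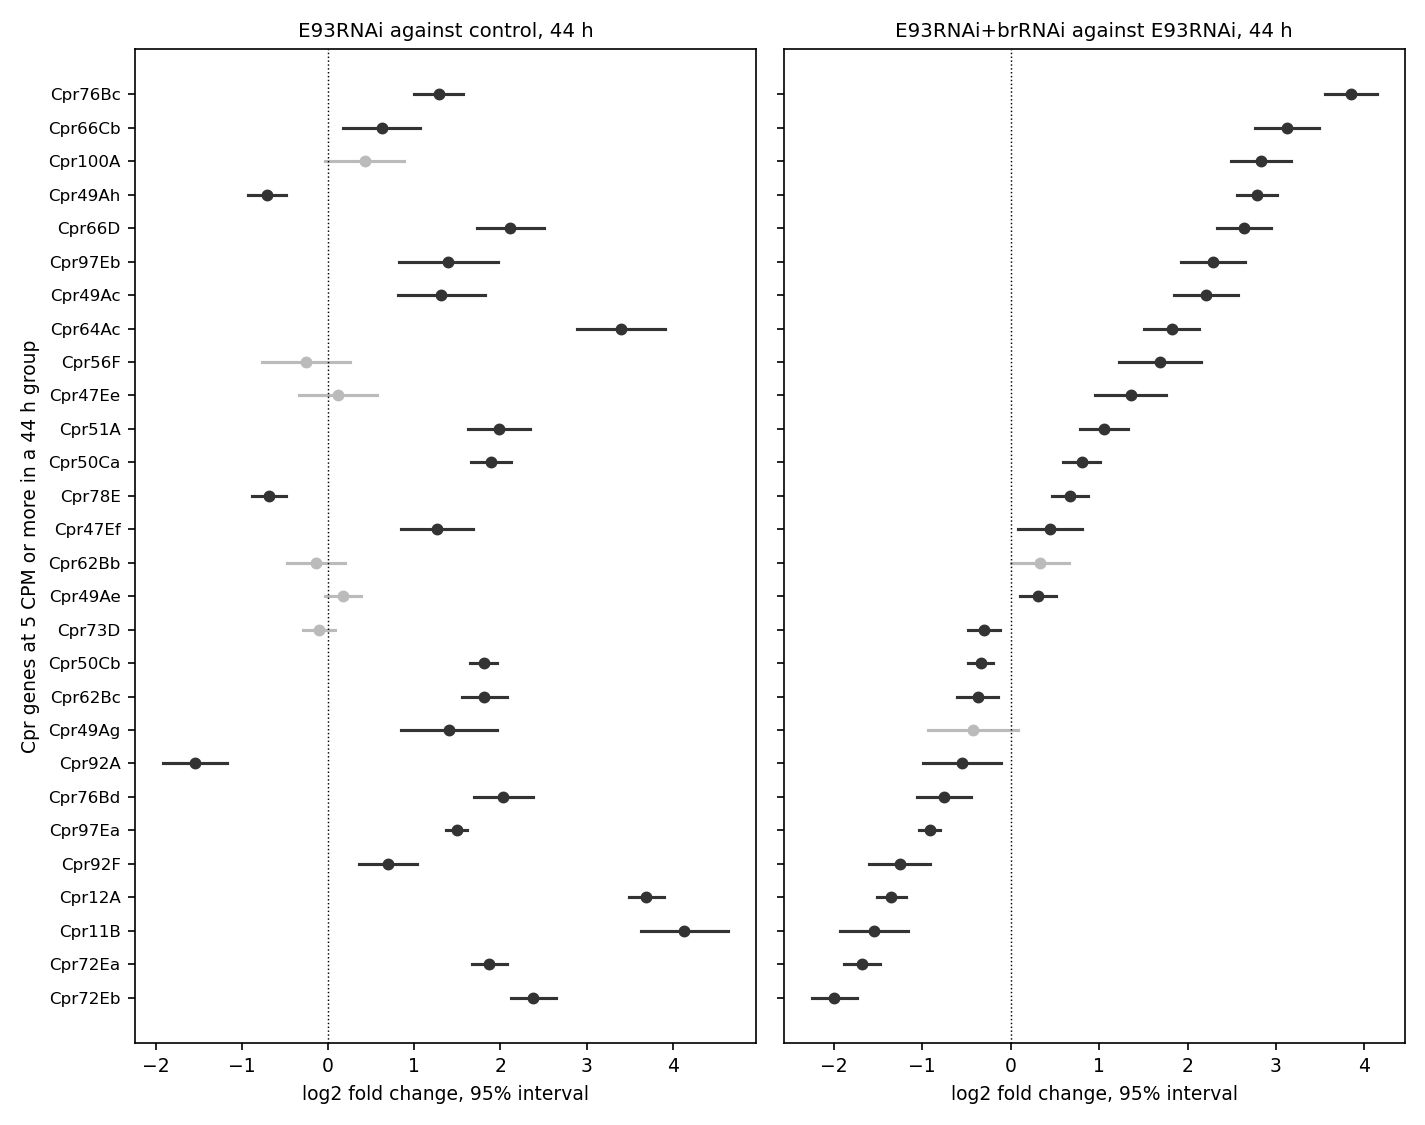
Log2 fold changes with 95% intervals at 44 h for the 28 Cpr genes with at least 5 CPM in a 44 h group, for E93RNAi against control and for E93RNAi+brRNAi against E93RNAi; dark points passed the threshold and grey ones did not. Cpr72Ea, Cpr72Eb, Cpr12A and Cpr97Ea lie above 0 in the first and below 0 in the second comparison, and Cpr76Bc and Cpr66D lie above 0 in both; the comparisons share the E93RNAi libraries.

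Set directly against control, E93RNAi+brRNAi wings had more calls at 44 h than at 24 h. At 24 h 16 of 44 members were higher and 9 lower, against 14.7% and 15.8% of all genes, and at 44 h 28 (63.6%) were higher and 5 (11.4%) lower, against 23.0% and 22.6%. At least 2-fold differences numbered 13 higher and 4 lower at 24 h (3.42% and 3.54% of all genes) and 25 higher and 3 lower at 44 h (7.92% and 2.61%). The members' medians were 0.53 and 1.47, or 0.78 and 1.45 with bounds, against 0.00 and -0.01 for all genes. Without replicate 3 of E93RNAi+brRNAi at 44 h, 30 were higher and 5 lower, with Cpr72Ea and Cpr72Eb among the higher. The 24 h calls of Cpr47Ec and Cpr62Ba were lost without any of 2 and 4 libraries (1.24 to 1.46 and 0.76 to 0.96). Genes higher at both times numbered 13, which is 81.2% of those at 24 h and 46.4% of those at 44 h, an overlap not counted over all genes. The largest differences at 44 h at 5 CPM or more were those of Cpr64Ac (log2 fold change 5.22 ± 0.21, adjusted p = 3.71e-14), Cpr76Bc, Cpr66D (log2 fold change 4.76 ± 0.17, adjusted p = 5.72e-15), Cpr66Cb (log2 fold change 3.74 ± 0.18, adjusted p = 6.41e-13), Cpr97Eb (log2 fold change 3.68 ± 0.21, adjusted p = 7.27e-12) and Cpr49Ac (log2 fold change 3.52 ± 0.20, adjusted p = 7.81e-12). Without replicate 3 of E93RNAi+brRNAi the log2 fold changes at 44 h were 4.48 for Cpr66D and 3.44 for Cpr66Cb. The lower members at 44 h were Cpr49Aa, Cpr64Aa, Cpr73D, Cpr92A and Cpr92F. Cpr92A stood at 2.53, 2.83 and 3.51 CPM against 10.9, 14.8 and 12.1 (log2 fold change -2.09 ± 0.19, adjusted p = 1.30e-08). The groups of Cpr92F overlapped, and its call was lost without replicate 2 of control (-0.29) or replicate 1 of E93RNAi+brRNAi (-0.38). At 24 h the call of Cpr31A (0.67 ± 0.22) was lost without replicate 1 or 2 of control (0.62 and 0.51) or replicate 1 of E93RNAi+brRNAi (0.51).

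The effect of adding brRNAi differed between the times, by its interaction, for 11 members upward and 14 downward, against 17.5% and 16.0% of all genes. A log2 difference of 1 either way was reached by 9 and 11, against 5.52% and 2.66%. Cpr100A had the largest log2 difference, 5.15 ± 0.21, being lower than in E93RNAi at 24 h and higher at 44 h. Cpr47Ee (2.26 ± 0.27) and Cpr50Ca (1.34 ± 0.20) also passed in opposite directions, but the 24 h call of Cpr50Ca was lost without replicate 3 of E93RNAi (-0.41) or replicate 1 of E93RNAi+brRNAi (-0.44). Cpr11B, Cpr50Cb, Cpr62Bc, Cpr65Ec, Cpr72Eb and Cpr73D were higher at 24 h and lower at 44 h, which is 35.3% of the 17 and 42.9% of the 14, an overlap not counted over all genes. Of these, Cpr11B, Cpr65Ec and Cpr72Eb at 24 h and Cpr62Bc at 44 h were among the calls that rested on single libraries, as given above. Cpr49Ah, Cpr76Bc, Cpr56F, Cpr64Ac, Cpr47Ea, Cpr47Ec and Cpr49Ae were higher than in E93RNAi at both times, and Cpr12A, Cpr31A and Cpr97Ea were lower at both. The interaction of Cpr66Cb (2.10 ± 0.71) was lost without any 1 of 4 libraries of 24 h, with log2 differences of 1.88 to 2.06, and that of Cpr49Ag without any 1 of 7 (-0.96 to -0.51).

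The time course within the RNAi genotypes overlapped in part with that of control, from separate libraries. In E93RNAi 26 members were higher and 12 lower at 44 h, against 38.1% and 36.4% of all genes, and in E93RNAi+brRNAi 27 were higher and 10 lower, against 37.8% and 38.0%. At least 2-fold changes numbered 23 higher and 10 lower in E93RNAi (17.2% and 10.3% of all genes) and 24 higher and 9 lower in E93RNAi+brRNAi (19.7% and 10.8%). The medians were 1.37 and 1.27 for the members, with or without bounds. Of the 22 members that rose in control, 20 also rose in E93RNAi (90.9% of 22 and 76.9% of 26) and 21 in E93RNAi+brRNAi (95.5% and 77.8%). Of the 15 that fell in control, 9 also fell in E93RNAi (60% of 15 and 75% of 12) and 8 in E93RNAi+brRNAi (53.3% of 15 and 80% of 10). Such overlaps were not counted over all genes, so they do not set the members apart. Cpr47Ee and Cpr64Aa rose in control and fell in E93RNAi, and Cpr64Aa fell in E93RNAi+brRNAi as well. Cpr49Ag fell in control and rose in E93RNAi, a rise that was lost without any of 4 libraries (0.39 to 0.56), and Cpr49Ac and Cpr51A fell in control and rose in E93RNAi+brRNAi. In E93RNAi+brRNAi the calls of Cpr47Ea and Cpr49Ae were lost without replicate 1 at 24 h (-0.87 and 0.18) or replicate 2 at 44 h (-0.75 and 0.21), and that of Cpr67B without replicate 2 at 24 h (0.45) or replicate 3 at 44 h (0.53). The fall of Cpr31A there, -4.07 ± 0.36, was -5.10 without replicate 3 at 44 h. Cpr100A did not pass over time in E93RNAi+brRNAi, at 55.3 ± 12.9 and 56.5 ± 8.37 CPM (log2 fold change 0.03, interval -0.24 to 0.30).

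Members of low level had patterns of their own. Cpr47Ef had 1 count in all at 24 h in E93RNAi and 1 in E93RNAi+brRNAi, and 282 and 350 at 44 h. Cpr49Ab had no count in any 24 h library and was at least 7.47-fold higher at 44 h in control, 14.9-fold in E93RNAi and 40.4-fold in E93RNAi+brRNAi. Cpr76Ba was at least 13.2-fold higher at 44 h than at 24 h in E93RNAi, and Cpr78Ca at least 16.9-fold in E93RNAi+brRNAi. Cpr47Ec had no count in control at 44 h and 52 in E93RNAi+brRNAi, at least 18.9-fold higher. Cpr35B and Cpr78Cc were genes of 24 h in control, at 2.59 and 3.98 CPM, and reached at most 0.307 CPM in a group at 44 h. Cpr72Ec, next to Cpr72Ea and Cpr72Eb, was between 0.271 and 0.616 CPM in the 6 groups and passed in none of the 11 comparisons. The 5 members that were not tested had group means of at most 0.586 CPM. In a fit of all genes with at least 30 counts, Cpr23B was lower at 44 h in control (log2 fold change -2.18, adjusted p = 0.0415) and in E93RNAi+brRNAi (-1.72, adjusted p = 0.0434), and Cpr78Cb was higher at 44 h in E93RNAi+brRNAi (1.46, adjusted p = 0.0259).

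By position, 32 of the 49 members lay in 10 runs of neighbours less than 20000 bases apart, in dm6 coordinates of the BDGP6 annotation. Chromosome arm 3L held 23 members, 2R 15, 3R 5, and 2L and X 3 each. Cpr72Ea (3L, 16362603 to 16363750), Cpr72Eb (3L, 16364899 to 16365707) and Cpr72Ec lay within 4738 bases. Over time, the log2 fold changes of Cpr72Ea and Cpr72Eb were -5.46 and -5.45 in control, -2.75 and -2.21 in E93RNAi, and -4.45 and -4.48 in E93RNAi+brRNAi, while Cpr72Ec did not pass. Cpr50Ca and Cpr50Cb, within 35317 bases on 2R, were both higher in E93RNAi than in control at 24 h and at 44 h. With added brRNAi they went opposite ways, with log2 fold changes against E93RNAi of -0.53 and 1.36 at 24 h and 0.80 and -0.34 at 44 h. Cpr65Eb and Cpr65Ec were both higher in E93RNAi than in control at 44 h and both lower in E93RNAi+brRNAi than in E93RNAi. In the run from Cpr49Aa to Cpr49Ah (2R, 12376626 to 12415170), Cpr49Ah was lower in E93RNAi at 44 h and Cpr49Ac and Cpr49Ag were higher (1.31 ± 0.24 and 1.41 ± 0.27). In the pair Cpr97Ea and Cpr97Eb (3R, 27083130 to 27091130), the first was lower and the second higher in E93RNAi+brRNAi than in E93RNAi at 44 h. Cpr76Bc and Cpr76Bd, in a run of 20738 bases on 3L, also went opposite ways there.

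Genes of related families give the setting for these values. Of 28 Rebers-Riddiford genes without a Cpr symbol, 27 had values and 9 were tested. None was higher and 5 were lower in E93RNAi than in control at 24 h, against 21.7% and 22.3% of all genes, and 4 were higher and 1 lower at 44 h, against 20.6% and 18.9%. In E93RNAi+brRNAi at 44 h, 2 were higher and 2 lower than in E93RNAi, against 24.9% and 23.9%. Edg78E, a pupal cuticle gene that depends on ecdysone, had 0.385, 0.548 and 0.499 CPM in control at 44 h, 4.04, 3.98 and 2.94 in E93RNAi and 0.863, 0.808 and 0.557 in E93RNAi+brRNAi. It was higher in E93RNAi than in control (log2 fold change 2.92 ± 0.28, adjusted p = 3.48e-08) and lower in E93RNAi+brRNAi than in E93RNAi (log2 fold change -2.30 ± 0.26, adjusted p = 4.08e-07), as were Cpr72Ea and Cpr12A. The larval cuticle gene Lcp65Ad did the same at lower levels (2.16 ± 0.42 and -2.17 ± 0.43). Not all genes of this list did so. Acp65Aa was lower in E93RNAi than in control at 44 h (log2 fold change -0.973, adjusted p = 0.0259). That call was lost without replicate 2 of either group. Ccp84Ab was higher in E93RNAi+brRNAi than in E93RNAi at 44 h (log2 fold change 1.966, adjusted p = 0.00943). Its call was lost without replicate 2 of E93RNAi+brRNAi. The list thus had no common direction. The gene of resilin, the elastic protein of insect cuticle, was higher in both steps, from 3.84 ± 0.429 CPM in control to 13.2 ± 3.65 in E93RNAi and 28.01 ± 10.1 in E93RNAi+brRNAi (1.78 ± 0.25 and 1.09 ± 0.21).

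Of the 26 Tweedle genes, which encode cuticle proteins without that domain, 5 were tested. Of these, 4 were higher and none lower in E93RNAi than in control at 44 h, against 20.6% and 18.9% of all genes. TwdlE, 1 of the 4, had 224 ± 4.25 against 25.5 ± 2.37 CPM (log2 fold change 3.14 ± 0.08, adjusted p = 1.41e-17). TwdlV had 1.38 ± 0.577 CPM in control and 18.8 ± 0.831 in E93RNAi (3.75 ± 0.24) and was lower in E93RNAi+brRNAi, at 2.94 ± 1.18 (log2 fold change -2.67 ± 0.22, adjusted p = 2.87e-09). With added brRNAi at 44 h, 1 of the 5 tested Tweedle genes was higher and 2 were lower than in E93RNAi, against 24.9% and 23.9% of all genes. Of 9 genes of the obstructor type, chitin-binding proteins of another family, 5 were tested. At 44 h none of these was higher and 2 were lower in E93RNAi than in control, against 20.6% and 18.9% of all genes, and 4 were higher and none lower in E93RNAi+brRNAi than in E93RNAi, against 24.9% and 23.9%. Gasp stood at 306 ± 7.74 CPM in control, 329 ± 8.59 in E93RNAi and 1261 ± 175 in E93RNAi+brRNAi (1.94 ± 0.08 for the last step).

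A list of 16 regulators held genes of the ecdysone cascade, among them both RNAi targets, together with grh and chinmo, and all were tested. At 44 h, 6 were higher and 4 lower in E93RNAi than in control, against 20.6% and 18.9% of all genes, and 6 were higher and 7 lower in E93RNAi+brRNAi than in E93RNAi, against 24.9% and 23.9%. Of those, ftz-f1, a nuclear receptor gene needed for pupal cuticle formation, fell in control from 17.7 ± 0.513 CPM at 24 h to 0.627 ± 0.164 at 44 h (log2 fold change -4.82 ± 0.17, adjusted p = 2.74e-16). In 44 h wings it did not pass between E93RNAi and control (0.47, interval -0.14 to 1.07) and was higher in E93RNAi+brRNAi than in E93RNAi, at 1.85 ± 0.491 CPM (1.09 ± 0.23). Blimp-1, a repressor gene induced by ecdysone, rose in control from 44.5 ± 4.52 to 673 ± 58.8 CPM and was lower at 44 h in E93RNAi (-0.47 ± 0.13). It was lower again in E93RNAi+brRNAi (-0.40 ± 0.13), with 419, 424 and 262 CPM, a call that was lost without replicate 3 of E93RNAi+brRNAi (-0.20) or replicate 3 of E93RNAi (-0.33). EcR, the ecdysone receptor gene, was higher at 44 h in E93RNAi than in control and higher again in E93RNAi+brRNAi, with means of 111 ± 5.89, 154 ± 14.5 and then 265 ± 20.6 CPM.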

How the data were processed

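The deposited files hold 2 values per gene, made by the authors: a whole-number read count without normalization, and cRPKM, an RPKM that scales the count by library total and gene length. Reads came from strand-keeping poly(A) libraries, per the labels' protocols, and the build was dm6, per the submitters' processing notes. Which aligner, counter and strand setting were used is not given in the sources used here, so reads of overlapping genes and close copies cannot be taken as separated. No deposited column was left unmapped. The tables listed 14489 genes, and 13511 of the 13731 with values matched a symbol. FBgn0000210 was taken as br, since it is a former FlyBase identifier of that gene and its implied length is within 1 base of a br transcript less 49 bases.

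All 18 libraries entered a single fit in edgeR 4.0.16 (R 4.3.3) with 1 mean per group, after TMM scaling and filterByExpr. Its quasi-likelihood F test was adjusted by Benjamini-Hochberg over 9672 genes, at 0.05, and the common coefficient of biological variation was 5.99%. CPM are scaled by TMM. SE and 95% intervals come from the F statistic. Folds against a group without counts are bounds against 3 counts summed over the group, and such floors cover counting error only. Tests were run for 6 genotype, 3 time and 2 interaction contrasts. Only the contrast of E93RNAi with control at 24 h was also run on simulated counts. Alternatives were DESeq2 1.42.0, RLE scaling, no filter beyond 30 counts, fits of only the groups compared, a replicate block, an adjusted p of 0.01 and leaving out each library.

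The members, the gene lists and the tests were chosen with earlier results of these data known. Full values go to at most 8 members per direction and comparison, by log2 fold change among calls of 5 CPM or more in the higher group, and to the 6 members with the highest cRPKM per group. Other genes were named from lists of Rebers-Riddiford genes without a Cpr symbol, Tweedle and obstructor genes, regulators (the ecdysone cascade, grh and chinmo) and markers of wing epithelium, muscle, hemocytes, neurons, trachea, sensory organs and fat body. The labels number the libraries of each group 1 to 3. Same-numbered libraries did not deviate together (correlations of deviations from group means -0.119 to 0.088), so no block was used.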

Additional observations from a re-analysis of the deposited data

Results flagged for a closer look

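Some Cpr genes had a difference between genotypes that itself differed between 24 h and 44 h, by the interaction test in the edgeR fit of all genes. Values are the 44 h log2 fold change less the 24 h one. For E93RNAi against control, positive differences were found for Cpr12A (3.64), Cpr72Eb (3.24), Cpr11B (3.17), Cpr51A (2.86), Cpr72Ea (2.71), Cpr97Eb (2.45), Cpr64Ac (2.45) and Cpr62Bc (2.10). Negative differences were found for Cpr92A (-3.89), Cpr47Ee (-3.45), Cpr56F (-2.39), Cpr50Ca (-2.09), Cpr76Bc (-0.96) and Cpr73D (-0.84). At 24 h Cpr92A had only 2 counts in control and 13 in E93RNAi. The call of Cpr64Ac was lost without replicate 3 of control at 24 h. Cpr76Bc and Cpr50Ca were higher in E93RNAi at both times and by less at 44 h. Cpr73D and Cpr47Ee were higher in E93RNAi at 24 h and did not pass at 44 h.

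For E93RNAi+brRNAi against E93RNAi, positive differences were found for Cpr100A (5.15), Cpr76Bc (3.08), Cpr97Eb (2.45), Cpr66D (2.44), Cpr49Ac (2.41), Cpr47Ee (2.26), Cpr66Cb (2.10) and Cpr50Ca (1.34). The call of Cpr66Cb rested on single libraries of 24 h, as given above. Negative differences were found for Cpr11B (-2.73), Cpr73D (-2.29), Cpr72Eb (-2.27), Cpr50Cb (-1.70), Cpr72Ea (-1.70), Cpr76Bd (-1.18), Cpr49Ae (-1.13) and Cpr12A (-1.11). Cpr73D, one of these, had 17.3 CPM in E93RNAi+brRNAi against 4.34 in E93RNAi at 24 h and 313 against 387 at 44 h.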

How the results depend on the processing

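The counts of called Cpr genes stayed within 1.5 times their value in all 11 comparisons under every alternative that was run. Of 154 single results, all kept direction and side of the threshold under DESeq2, RLE scaling, the 30-count filter and the replicate block, 153 in fits of only the groups compared, and 147 at an adjusted p of 0.01. Another scaling shifted the median log2 fold change of all genes by at most 0.033. Group numbers 1 to 3 did not pair the libraries. With the replicate block in the fit, 12 members were higher and 9 lower in E93RNAi than in control at 24 h, and 25 and 5 at 44 h. For added brRNAi the block gave 17 and 7 at 24 h and 18 and 13 at 44 h, for E93RNAi+brRNAi against control 16 and 9, then 28 and 5, and for time 22 and 15 in control, 25 and 12 in E93RNAi and 27 and 10 in E93RNAi+brRNAi. For the interactions it gave 17 and 8, and 11 and 14.

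Leaving out each library in turn gave 12 higher and 9 to 10 lower in E93RNAi against control at 24 h, and 24 to 26 and 4 to 5 at 44 h. For added brRNAi the ranges were 14 to 17 and 6 to 7 at 24 h and 17 to 19 and 12 to 14 at 44 h, and for E93RNAi+brRNAi against control 14 to 16 and 9 to 10, then 28 to 31 and 4 to 5. Over time they were 20 to 22 and 14 to 15 in control, 25 to 26 and 12 in E93RNAi, and 26 to 28 and 9 to 11 in E93RNAi+brRNAi. The interactions gave 16 to 19 and 7 to 9 with E93RNAi, and 10 to 12 and 13 to 14 with added brRNAi. Depth limits members near 1 CPM, where 1 count is worth 0.0412 CPM or more.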

Other observations

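Further Cpr genes of lower level differed between genotypes. Cpr62Bb was lower in E93RNAi than in control at 24 h, at 2.82 ± 0.681 against 5.74 ± 0.535 CPM (log2 fold change -1.02 ± 0.18, adjusted p = 1.74e-04), and was higher again in E93RNAi+brRNAi, at 5.14 ± 0.865 CPM (log2 fold change 0.87 ± 0.18, adjusted p = 9.26e-04). Without replicate 3 of E93RNAi at 24 h these log2 fold changes were -0.84 and 0.69. At 44 h Cpr62Bb did not pass between any of the genotypes, at 7.93, 7.18 and 9.01 CPM. Cpr56F had 16.5, 22.3 and 14.8 CPM in E93RNAi+brRNAi at 44 h, 5.65, 6.69 and 4.09 in E93RNAi and 9.56, 4.68 and 5.65 in control. Control and E93RNAi overlapped and E93RNAi+brRNAi lay above both (log2 fold change 1.69 ± 0.22, adjusted p = 2.51e-06). Cpr49Aa, a gene of 44 h in control with 1.79 ± 0.135 CPM there, was lower at 44 h in E93RNAi, at 0.493 ± 0.259 CPM (log2 fold change -1.81 ± 0.36, adjusted p = 3.96e-04), and in E93RNAi+brRNAi, at 0.600 ± 0.0599 CPM (log2 fold change -1.56 ± 0.36, adjusted p = 0.00129).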
